A study of Mus musculus with 6 samples.

Results

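The genes described here encode the elastic fibre and its microfibril scaffold: elastin (Eln), the fibrillins (Fbn1, Fbn2), the fibulins (Fbln1, Fbln2, Fbln5 and Efemp2, which encodes fibulin-4), the lysyl oxidases (Lox, Loxl1) and Emilin1. They were chosen by gene symbol, and every probe set was taken whose annotation names 1 of these symbols and no other gene. Of 10 listed genes 8 were measured, by 18 of 45037 probe sets, and Fbn1 and Efemp2 were not analysed here. Expression was measured on Affymetrix arrays in mouse pancreas dissected at stage E12.5 from 3 Hox6 null samples and 3 control samples. The Hox6 null samples carry the genotype label Hox6 null and the control samples the label wild type, both with the strain given as Bl6, and Hox6 names the paralog group of the transcription factors Hoxa6, Hoxb6 and Hoxc6. The study compared the groups to see how gene expression in the developing pancreas differs without Hox6 function. The labels do not say which alleles were used, how many embryos made up a sample, or their sex. Each value is an expression level on the log2 scale, and a difference is Hox6 null minus control.

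The targeted genes gave no check of the genotype. Hoxb6 read 8.25, 8.71 and 8.91 in Hox6 null arrays, against 8.78, 8.97 and 9.36 in control arrays, with overlapping groups. The 3 Hoxc6 probe sets differed by +0.13 to +0.73. A probe set outside the disrupted part checks nothing, and Hoxa6 was not analysed here. The position of these probe sets relative to the disruption is not given in the sources used here.

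Elastic fibres are built outside the cell in steps. Tropoelastin, the soluble product of Eln, is laid down on microfibrils made of fibrillin, guided by fibulin-4 and fibulin-5, and is then cross-linked through its lysines by lysyl oxidases. Emilin-1 sits where elastin meets the microfibril. Fibrillin microfibrils also occur without elastin and hold latent TGF-beta complexes in the matrix. In most organs these proteins come from mesenchymal cells, smooth muscle and the cells of vessel walls. At this stage the pancreas is a branching epithelium inside a mesenchymal coat.

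In Hox6 null pancreas the genes for lysyl oxidase and fibulin-5 showed the largest differences of the 8 measured. Lox stood 2.46-fold and Fbln5 2.69-fold lower, Emilin1, Fbln2 and Loxl1 between 1.51-fold and 1.74-fold lower, and Fbn2 1.28-fold lower. In these 6 genes every Hox6 null array read below every control array. Eln and Fbln1 overlapped between the groups. None of the 8 genes passed the test over all genes (limma with Benjamini-Hochberg adjustment at 0.05), where 0.0715% of 18193 genes passed, and none of the 18 probe sets passed over all probe sets, where 0.00222% did. At an unadjusted p under 0.05 (limma), 6 of the 8 genes were lower and 0 higher, while 8.24% of all genes were lower and 8.73% higher. Among all genes, 11.7% had every Hox6 null array below every control array and 12.2% had every one above. The median difference was -0.69 over the 8 genes and +0.03 over all genes, of which 44.0% had a negative difference. Each gene is represented by its brightest probe set.

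Whether any member passed depended on 1 array, and also on array weights, the variance prior and a filter on level. Without Hox6 null replicate 3, 5 of the 8 genes passed, all lower (Lox, Loxl1, Emilin1, Fbln5 and Fbn2), beside 8.44% of all genes, and 6 of the 18 probe sets passed, beside 4.22% of all probe sets. Without any other single array 0 passed. With array weights Lox and Loxl1 passed (0.852% of all genes did), and with a robust variance prior that follows intensity Lox, Loxl1 and Emilin1 passed (0.407% of all genes) with 2 of the 18 probe sets (0.140% of all). Among genes with a mean level of at least 7, Loxl1 passed (0.219% of those genes did). An exact permutation test of 3 against 3 arrays cannot give a p below 0.1, so adjusted p-values come from limma.

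**Figure D1:**
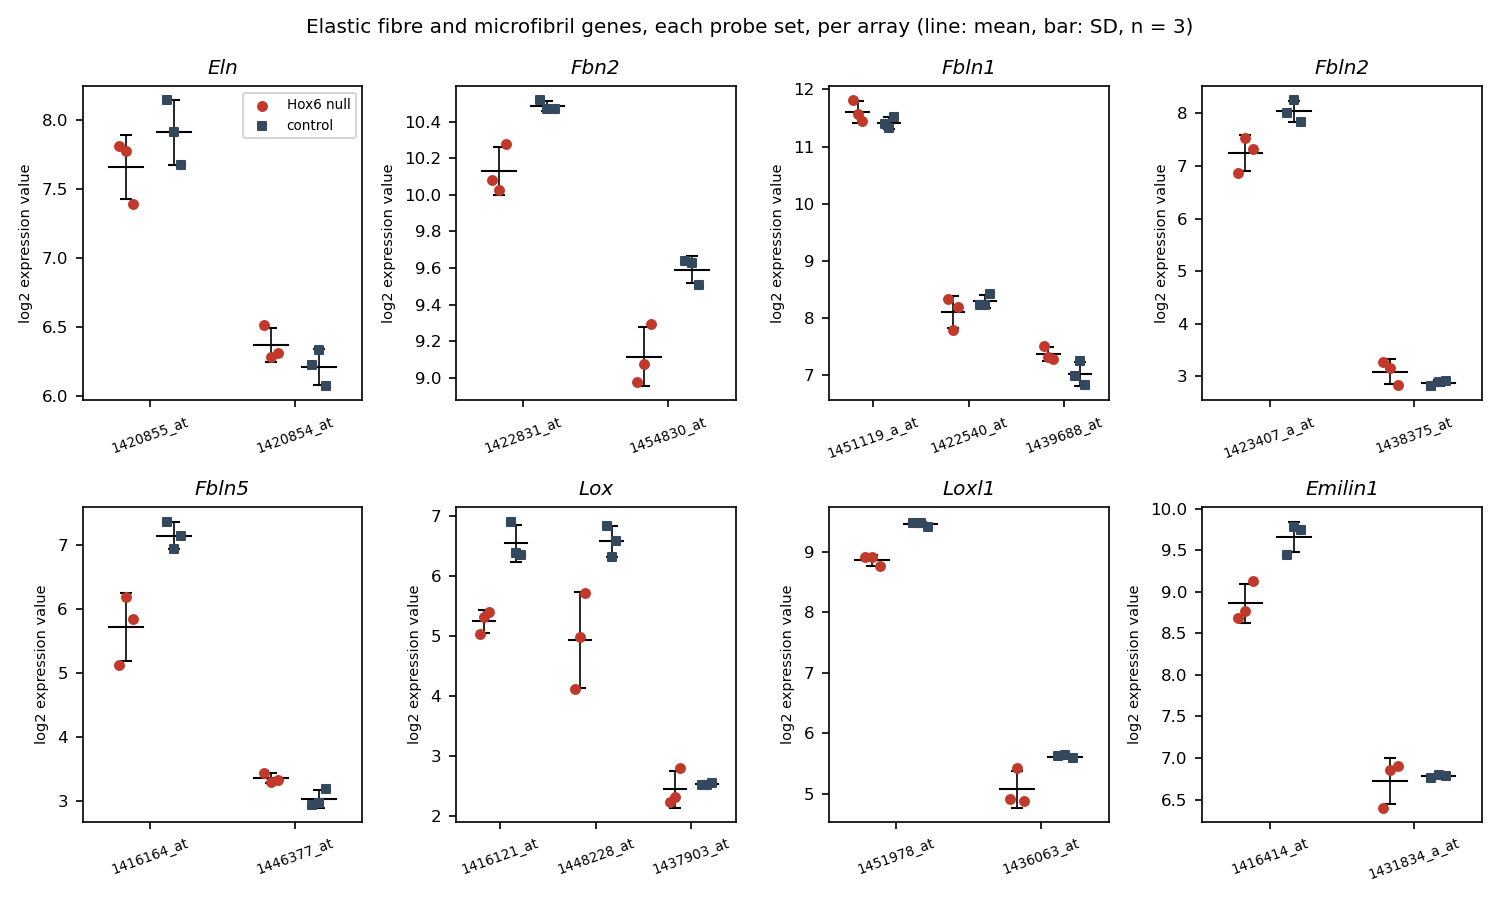
Log2 expression value (vertical axes, scaled per gene) of each probe set of the 8 measured genes, with 3 Hox6 null arrays (red circles) left of 3 control arrays (dark squares), the mean as a line and the SD as a bar. The groups separate in the brighter probe sets of Lox, Fbln5, Emilin1, Fbln2, Loxl1 and Fbn2, and overlap in those of Eln and Fbln1.

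Sequence upstream of the start site is shown for the genes with an entry in the RefSeq promoter table (GRCm38.p6). Of the 10 genes 6 had entries, 10 entries in all. Shown are the 250 bases before the start for Fbln5, Fbln2 and Emilin1, which each read lower in Hox6 null arrays in their brightest probe set, and for Fbln1, which did not. Capitals mark matches on either strand to 4 motifs: TATAAA (the TATA box), TAAT (the core bound by homeodomain proteins such as Hox factors), TGATTNAT (a Hox-Pbx site) and GGGCGG (an Sp1 site). No build is named for the arrays, so these coordinates belong to the promoter table alone.
Fbln5, first start, chr12:101819120-101819369, strand -: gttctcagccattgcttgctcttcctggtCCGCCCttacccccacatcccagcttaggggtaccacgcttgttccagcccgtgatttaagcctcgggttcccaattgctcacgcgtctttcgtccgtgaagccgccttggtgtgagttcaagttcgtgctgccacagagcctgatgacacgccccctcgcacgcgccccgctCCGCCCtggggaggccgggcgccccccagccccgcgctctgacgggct
Fbln5, second start, chr12:101818485-101818734, strand -: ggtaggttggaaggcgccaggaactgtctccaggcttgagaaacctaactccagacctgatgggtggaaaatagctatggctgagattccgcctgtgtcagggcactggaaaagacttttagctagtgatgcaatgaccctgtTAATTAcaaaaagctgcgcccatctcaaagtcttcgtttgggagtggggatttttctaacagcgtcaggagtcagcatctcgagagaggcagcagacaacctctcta
Fbln2, chr6:91212514-91212763, strand +: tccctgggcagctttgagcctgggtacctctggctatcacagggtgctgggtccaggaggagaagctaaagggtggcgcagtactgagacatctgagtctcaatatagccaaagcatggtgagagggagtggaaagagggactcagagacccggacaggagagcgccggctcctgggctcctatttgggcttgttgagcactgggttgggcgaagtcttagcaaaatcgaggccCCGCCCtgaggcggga
Emilin1, chr5:30913536-30913785, strand +: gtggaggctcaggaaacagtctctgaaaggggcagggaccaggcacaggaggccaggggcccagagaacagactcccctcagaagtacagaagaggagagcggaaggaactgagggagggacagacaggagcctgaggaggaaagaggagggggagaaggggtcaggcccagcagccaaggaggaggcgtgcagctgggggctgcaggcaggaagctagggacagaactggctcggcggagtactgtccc
Fbln1, first start, chr15:85205699-85205948, strand +: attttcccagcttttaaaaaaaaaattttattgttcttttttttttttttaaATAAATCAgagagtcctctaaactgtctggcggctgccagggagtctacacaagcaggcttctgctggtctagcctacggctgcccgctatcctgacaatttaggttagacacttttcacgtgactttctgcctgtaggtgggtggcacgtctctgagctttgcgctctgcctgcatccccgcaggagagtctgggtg
Fbln1, second start, chr15:85205758-85206007, strand +: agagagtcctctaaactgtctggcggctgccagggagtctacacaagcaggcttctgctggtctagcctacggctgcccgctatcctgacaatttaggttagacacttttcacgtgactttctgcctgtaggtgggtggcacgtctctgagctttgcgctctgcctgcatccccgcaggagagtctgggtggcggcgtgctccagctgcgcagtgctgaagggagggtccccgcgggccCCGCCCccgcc

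Fbln5 held 2 Sp1 matches before its first start, and before its second start 2 overlapping TAAT matches on opposite strands, beginning 107 and 105 bases upstream. Fbln2 held 1 Sp1 match, Emilin1 held none of the 4 motifs, and Fbln1 held 1 Hox-Pbx match that begins 198 bases upstream of its first start and 1 Sp1 match that begins 11 bases upstream of its second start. Sp1 matches thus occurred both before genes that read lower and before Fbln1. Over all 32851 promoter entries and the same 250 bases, 54.9% held TAAT, 32.7% GGGCGG, 12.4% TATAAA and 2.82% TGATTNAT. A match of letters does not show binding, and no match says only that these letters are not in this window.

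Eln, the gene of elastin itself, read 7.81, 7.78 and 7.39 in Hox6 null arrays 1, 2 and 3, against 8.14, 7.91 and 7.67 in control arrays 1, 2 and 3 (probe set 1420855_at). The highest Hox6 null arrays lay above the lowest control array. The difference was -0.25 ± 0.17 (SE), with a 95% interval of -0.64 to 0.14 and an adjusted p of 0.460 (limma, all genes). The dimmer probe set 1420854_at gave +0.16, with Hox6 null levels of 6.51, 6.28 and 6.31 against control levels of 6.22, 6.33 and 6.07, so the probe sets differed in sign and neither separated the groups. When single arrays were left out, the difference of the brighter one ran from -0.37 (without control replicate 3) to -0.12 (without Hox6 null replicate 3). It was -0.13 without control replicate 1. Without control replicate 3 every Hox6 null array read below the remaining control arrays, as for 14.2% of all genes.

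The genes whose profile over the 6 arrays came closest to that of Eln were taken from 2620 genes of at least median level and an SD of at least 0.2. Likeness was the mean absolute difference of centred log2 values. Tagln, the smooth muscle protein transgelin, came first at 0.060, followed by Chek2 at 0.078, Fut11 at 0.088, Focad at 0.089 and Nrp1, a co-receptor for vascular endothelial growth factor, at 0.090. Tagln read 7.84, 8.06 and 7.59 in Hox6 null arrays, against 8.34, 8.14 and 7.83 in control arrays. This is a description of 6 points that share their arrays.

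Fbn2 encodes fibrillin-2, the fibrillin of embryonic microfibrils. It read 10.08, 10.03 and 10.28 in Hox6 null arrays, against 10.52, 10.47 and 10.47 in control arrays (1422831_at). Its second probe set, 1454830_at, read 8.98, 9.07 and 9.29 in Hox6 null arrays, against 9.64, 9.63 and 9.51 in control arrays. Both placed every Hox6 null array below every control array, with array 3 nearest to the controls. The differences were -0.36 ± 0.10 (SE; adjusted p = 0.20, limma, all genes) and -0.48 ± 0.12 (adjusted p = 0.214, limma, all probe sets).

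The 3 measured fibulins did not move as 1 group. Fbln5, an elastin-binding fibulin that also binds integrins, read 5.13, 6.19 and 5.85 in Hox6 null arrays, against 7.37, 6.94 and 7.14 in control arrays (1416164_at). All 3 Hox6 null arrays lay below the controls, and they spread more among themselves (SD 0.54) than the controls did (SD 0.21). The difference was -1.43 ± 0.26 (SE), with a 95% interval of -2.05 to -0.81 and an adjusted p of 0.125 (limma, all genes). A second probe set, 1446377_at, gave +0.33, with every Hox6 null array above every control array. Its levels were 3.44, 3.29 and 3.33 in Hox6 null arrays and 2.94, 2.96 and 3.19 in control arrays. That probe set lay below the lower quartile of its array on all 6 arrays, where differences are compressed. The cause of the opposite sign was not tested.

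Fbln2, whose product is found in basement membranes and microfibrils, read 6.87, 7.53 and 7.33 in Hox6 null arrays, against 8.02, 8.25 and 7.85 in control arrays (1423407_a_at). The groups did not overlap. The difference was -0.79 ± 0.19 (SE; adjusted p = 0.166, limma, all genes). Its other probe set, 1438375_at, read 2.83 to 3.28 in Hox6 null arrays and 2.82 to 2.91 in control arrays, again below the lower quartile on every array.

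Fbln1, a fibulin of basement membranes and elastic fibres, was the one measured gene of the 8 with a positive difference. It read 11.81, 11.57 and 11.44 in Hox6 null arrays, against 11.39, 11.32 and 11.52 in control arrays (1451119_a_at). The groups overlapped, with a difference of +0.20 ± 0.13 (SE), a 95% interval of -0.10 to 0.49 and an adjusted p of 0.445 (limma, all genes). When single arrays were left out, it ran from +0.09 (without Hox6 null replicate 1) to +0.28 (without Hox6 null replicate 3). Without control replicate 3 every Hox6 null array read above the remaining control arrays, as for 16.5% of all genes. Its probe set 1439688_at gave +0.35 with every Hox6 null array above every control array, and 1422540_at gave -0.18 with overlapping arrays. Within the same arrays, the level of Fbln5 relative to Fbln1 differed by -1.62 between the groups, and that of Lox relative to Eln by -1.05. Both pairs were picked after the values had been seen and are given without a test.

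Emilin1 encodes a glycoprotein that joins elastin to microfibrils and, in mice, restrains the processing of TGF-beta. It read 8.68, 8.77 and 9.12 in Hox6 null arrays, against 9.45, 9.78 and 9.74 in control arrays (1416414_at). The groups did not overlap. The difference was -0.80 ± 0.15 (SE; adjusted p = 0.132, limma, all genes). Its second probe set, 1431834_a_at, did not separate the groups (6.40, 6.85 and 6.90 in Hox6 null arrays, against 6.76, 6.79 and 6.78 in control arrays) and gave -0.06.

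The cross-linking enzymes had the smallest p-values of the group. Lox encodes lysyl oxidase, which oxidises lysines of elastin and collagen. It read 5.04, 5.32 and 5.40 in Hox6 null arrays, against 6.91, 6.39 and 6.35 in control arrays (1416121_at). A second probe set built on the same transcript record, 1448228_at, read 4.12, 4.98 and 5.72 in Hox6 null arrays, against 6.84, 6.32 and 6.59 in control arrays. Both separated the groups, and the second spread more among the Hox6 null arrays (SD 0.80) than the first (SD 0.19). The differences were -1.30 ± 0.18 (SE; adjusted p = 0.0711, limma, all genes) and -1.64 ± 0.37 (adjusted p = 0.202, limma, all probe sets). The third probe set of Lox, 1437903_at, read 2.23 to 2.80 in Hox6 null arrays and 2.52 to 2.56 in control arrays and lay below the lower quartile throughout.

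Loxl1 encodes a lysyl oxidase that acts with fibulin-5 in depositing elastin in mice. It read 8.92, 8.92 and 8.76 in Hox6 null arrays, against 9.48, 9.49 and 9.41 in control arrays (1451978_at). Within each group these values lay close together (SD 0.09 in Hox6 null and 0.04 in control arrays), and the groups did not overlap. The difference was -0.59 ± 0.09 (SE; adjusted p = 0.0874, limma, all genes). Its second probe set gave -0.54, with 4.91, 5.42 and 4.88 in Hox6 null arrays and 5.62, 5.64 and 5.58 in control arrays.

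**Figure D2:**
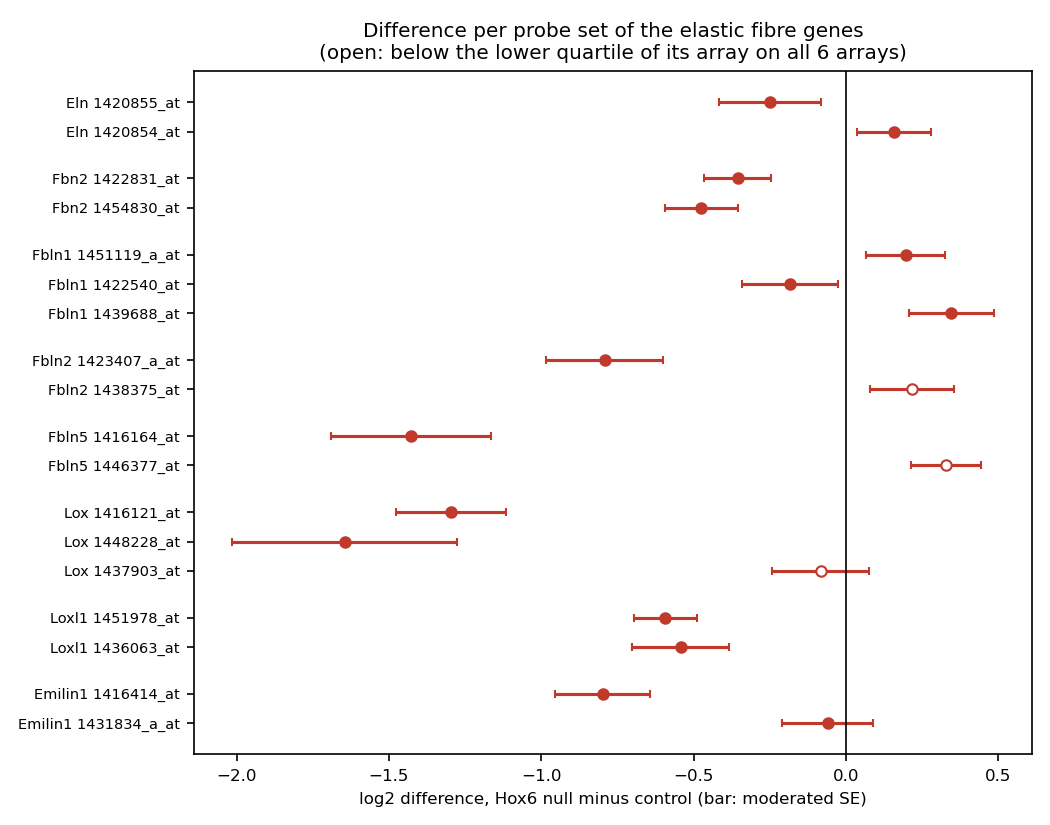
Log2 difference, Hox6 null minus control (horizontal axis), for each of the 18 probe sets, with the moderated SE as a bar. Open points mark the 3 probe sets below the lower quartile of their array on all 6 arrays. The differences run from -1.64 for Lox to +0.35 for Fbln1.

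Counted by probe set, 9 of 18 placed every Hox6 null array below every control array (9.89% of all probe sets did), and 2 placed every one above (12.1% did). At an unadjusted p under 0.05 (limma), 9 were lower (6.79% of all) and 2 higher (8.17% of all). The median difference was -0.30 over the 18 probe sets, -0.48 over the 15 that were not below the lower quartile throughout, and +0.04 over all probe sets. Probe sets of 1 gene share their RNA and are not replicates.

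The order of the Hox6 null arrays varied from gene to gene. Array 1 was the lowest of the 3 for 4 of the 8 genes, array 2 for 1 and array 3 for 3. Over the 8 genes the mean level was 8.04, 8.26 and 8.20 in Hox6 null arrays 1, 2 and 3, against 8.91, 8.82 and 8.77 in the control arrays.

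Markers of the cell types in the tissue also read differently between the groups. Of 13 pancreatic epithelium markers 12 had a positive difference, and 0 passed over all genes. Their mean level was 9.93 and 9.75 in Hox6 null arrays 1 and 2 and 8.96 in array 3, against 8.82 to 8.97 in control arrays, and Pdx1, which marks the pancreas, read 8.24 to 9.97 in all 6 arrays. Of 11 mesenchyme markers 10 had a negative difference and 0 passed, with mean levels of 9.55, 9.66 and 10.02 in Hox6 null arrays and 10.05 to 10.17 in control arrays. Of 10 smooth muscle markers 7 were negative and 0 passed (mean level 6.22 to 6.30 in Hox6 null arrays, against 6.43 to 6.65 in control arrays). Their differences ran from -1.02 for Acta2, the smooth muscle actin, to +0.22 for Myh11, with a median of -0.29. All 9 endothelium markers were negative and 1 passed, Tek (mean level 7.89 to 8.37 in Hox6 null arrays, against 8.63 to 8.77 in control arrays). Of 6 mesothelium markers 5 were negative and 0 passed (6.15 to 6.39 in Hox6 null arrays, against 6.97 to 7.12 in control arrays). All 9 macrophage markers were negative and 1 passed, Adgre1 (7.61 to 8.02 in Hox6 null arrays, against 8.48 to 8.57 in control arrays). Every Hox6 null array read below every control array for 8 of 9 endothelium and 8 of 9 macrophage markers. The same held for 6 of 11 mesenchyme, 4 of 6 mesothelium and 3 of 10 smooth muscle markers, and for 6 of the 8 members. For 5 of 13 epithelium markers every one read above. Over all genes these shares were 11.7% below and 12.2% above. Of the other lists, erythroid (5 genes, median -0.58, 1 passed) and spleen primordium markers (2 genes, -0.89) had negative medians, and neural (4 genes, +0.37), gut epithelium (4 genes, +0.29), cartilage and bone (5 genes, +0.28) and liver markers (6 genes, +0.07) positive ones. In bulk tissue, fewer cells of a type and less RNA per cell cannot be told apart, and the part of these shifts in the elastic fibre genes was not tested beyond the values that follow.

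In Hox6 null array 3 the list medians of epithelial and mesenchymal markers lay at +0.06 and -0.10 from the control mean. Single markers set this array apart from all others. Sox2 read 5.40 there, against 2.54 to 3.12 in the other arrays, and Tubb3 8.17, against 5.81 to 6.62. Barx1, from the mesenchyme list, read 10.70, against 9.31 to 10.02. Cdx1 (3.23), Cdx2 (4.26) and Stmn2 (7.91), from the gut and neural lists, did not stand above the other arrays. The mesenchyme list was split. For 6 of its 11 markers every Hox6 null array, array 3 included, read below every control array. The list medians of array 3 stayed below the controls for smooth muscle (-0.28), endothelium (-0.27), mesothelium (-0.46) and macrophage markers (-0.49). Its mean smooth muscle level of 6.22 was the lowest of the 3 Hox6 null arrays. The levels in the same array were 5.40 for Lox, 5.85 for Fbln5, 9.12 for Emilin1, 7.33 for Fbln2, 8.76 for Loxl1 and 10.28 for Fbn2. These 6 genes were the ones with every Hox6 null array below every control array, so array 3 lay below the controls by that choice. Of the rest, Eln read 7.39 in array 3 and Fbln1 11.44. When each array was scaled to its mean over the mesenchyme markers, which moved the median of all genes to +0.38, Fbln5 stood at -1.08, Lox at -0.95, Emilin1 at -0.45, Fbln2 at -0.44 and Loxl1 at -0.24. Under this scaling Fbn2 stood at -0.005, Eln at +0.10 and Fbln1 at +0.55, and 0 of the 8 passed (limma). With the level of epithelial markers as a covariate the difference was -1.21 for Fbln5, -1.16 for Lox, -0.71 for Loxl1, -0.62 for Fbln2, -0.56 for Eln, -0.48 for Emilin1, -0.21 for Fbn2 and -0.01 for Fbln1, and 0 passed. Both of these fits were added after the data had been seen.

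**Figure D3:**
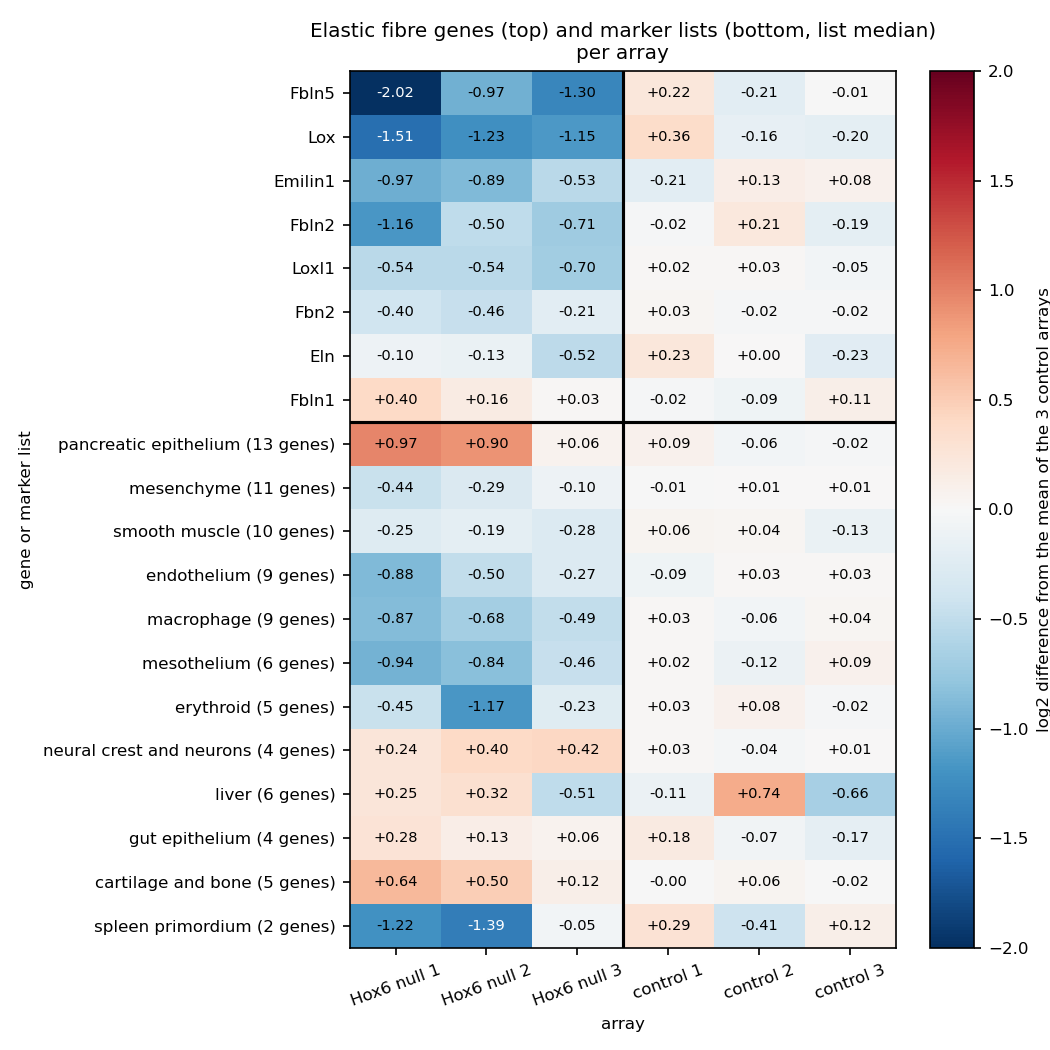
Log2 difference of each array from the mean of the 3 control arrays (colour, values in the cells), for the 8 measured genes above the line and the medians of 12 marker lists below it, with Hox6 null arrays left of control arrays. Among the 8 genes Fbln5 and Lox are lowest in each Hox6 null array. Epithelial markers stand at +0.97 and +0.90 in Hox6 null arrays 1 and 2 and at +0.06 in array 3.

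Xist levels differed among samples of the same group and were not balanced between the groups, with a difference of -3.73. The highest levels were those of control arrays 1 and 2, so Xist level and genotype were partly confounded. Xist, which is transcribed from the inactive X chromosome of female cells, read 6.87, 3.87 and 4.07 in Hox6 null arrays, against 11.18, 10.68 and 4.13 in control arrays (1436936_s_at). With Xist as a covariate the differences were -1.59 for Fbln5, -1.21 for Lox and -0.04 for Eln, and 0 members passed.

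Around the fibre itself, 57 of 59 related genes were measured, and Loxl2 and Fkbp10 were not analysed here. Of the 57, 41 had a negative and 16 a positive difference, with a median of -0.12. Ctss was the single one that passed over all genes. At an unadjusted p under 0.05 (limma) 16 were lower and 0 higher, 16 had every Hox6 null array below every control array and 2 had every one above. Over all genes these shares were 8.24% lower and 8.73% higher at that p, and 11.7% below and 12.2% above.

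The other fibulins and emilins came closest to the members in size, with 6 of 7 genes negative, 5 of them with non-overlapping arrays, and a median of -0.66. Hmcn1, which encodes the large fibulin family protein hemicentin-1, read 4.35, 4.21 and 5.11 in Hox6 null arrays, against 6.30, 6.32 and 6.40 in control arrays. Its difference of -1.79 ± 0.23 (SE) did not pass (adjusted p = 0.0698, limma, all genes). It passed without Hox6 null replicate 3, with array weights, with the robust prior that follows intensity, and relative to the mesenchyme markers, where 0.0495% of all genes passed. Mmrn2, an emilin family gene of endothelium, stood at -0.70 ± 0.10 (adjusted p = 0.0735), with the same sign in all 4 probe sets. Emilin2 stood at -0.70 and Efemp1, which encodes fibulin-3, at -0.66.

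Microfibril-associated genes and latent TGF-beta binding proteins lay near 0. Of 15 measured 9 were negative, the median was -0.06, and 1 had non-overlapping arrays. That gene was Ltbp4, which encodes a latent TGF-beta binding protein that acts with fibulin-5 in elastin assembly in mice. It read 7.37, 7.65 and 8.01 in Hox6 null arrays, against 8.56, 8.13 and 8.30 in control arrays. The difference was -0.66 ± 0.19 (SE), with an adjusted p of 0.195 (limma, all genes). Thsd4 stood at -0.73 with Hox6 null levels of 5.39, 6.21 and 7.01 against control levels from 6.68 to 7.13. Mfap5 and Adamtsl3 stood at +0.23 and +0.24 with overlapping arrays.

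Among 10 measured helpers of cross-linking and assembly 8 were negative, with a median of -0.13 and 0 past the threshold. Slc2a10, a glucose transporter gene mutated in human arterial tortuosity syndrome, stood at -0.87 ± 0.15 (SE; adjusted p = 0.102, limma, all genes), with 5.34, 5.84 and 5.40 in Hox6 null arrays against 6.46, 6.39 and 6.33 in control arrays. Atp7a, the copper pump that loads lysyl oxidases, stood at -0.22 with overlapping arrays. Atp6v0a2 stood at -0.21 and Tll2 at +0.22, the latter with levels of 3.18 to 3.60, below the lower quartile of every array.

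Of 15 elastin-degrading proteases and their inhibitors 9 were negative, with a median of -0.11. Ctss, a macrophage cathepsin that degrades elastin, fell to 7.33, 7.54 and 7.48 in Hox6 null arrays, against 8.44, 8.37 and 8.34 in control arrays. Its difference was -0.93 ± 0.10 (SE; adjusted p = 0.0417, limma, all genes), and all 9 macrophage markers had a negative difference as well, whose part in the result was not tested. Ctss lost its call when any array other than Hox6 null replicate 3 was left out, with the replicate numbers as a block, with repeated quantile normalization or median centring, with a minimum fold change, with either covariate, and relative to the mesenchyme markers. The metalloprotease inhibitors Timp3, Timp2 and Timp1 stood at -0.47, -0.35 and -0.25, each with non-overlapping arrays and none past the threshold.

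Of 10 integrin subunits that can bind fibrillins or fibulins 9 were negative, with a median of -0.18 and 0 past the threshold. Itgb5 stood at -0.53 ± 0.10 (SE; adjusted p = 0.132, limma, all genes), with the same sign in 4 of 4 probe sets. Itga9 and Itga8 stood at -0.90 and -0.91 with non-overlapping arrays. Itgb3 stood at -1.30, where Hox6 null array 3 (7.98) lay among the control arrays (7.87 to 8.45) and arrays 1 and 2 read 6.01 and 6.59.

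**Figure D4:**
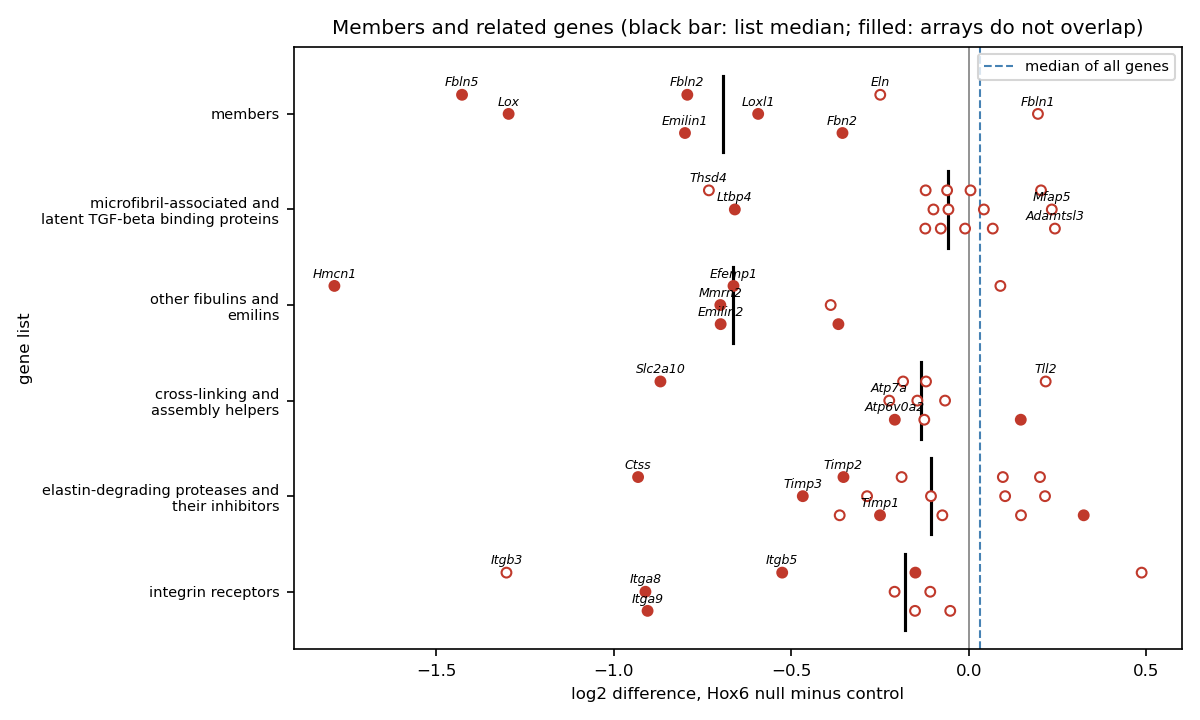
Log2 difference, Hox6 null minus control (horizontal axis), of the 8 measured members and of 57 related genes in 5 lists. Filled points mark genes whose arrays do not overlap between groups, black bars the list medians and the dashed line the median of all genes. The median is -0.69 for the members, -0.66 for other fibulins and emilins, and between -0.18 and -0.06 for the other 4 lists.

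The size of the differences also depended on the choice of probe sets. When a gene's probe sets were averaged, the dim ones included, Fbln5 stood at -0.55, Fbln2 at -0.29, Emilin1 at -0.43 and Lox at -1.01, and 0 passed (limma). Loxl1 at -0.57 and Fbn2 at -0.42 moved little, since both of their probe sets gave like values.

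**Figure D5:**
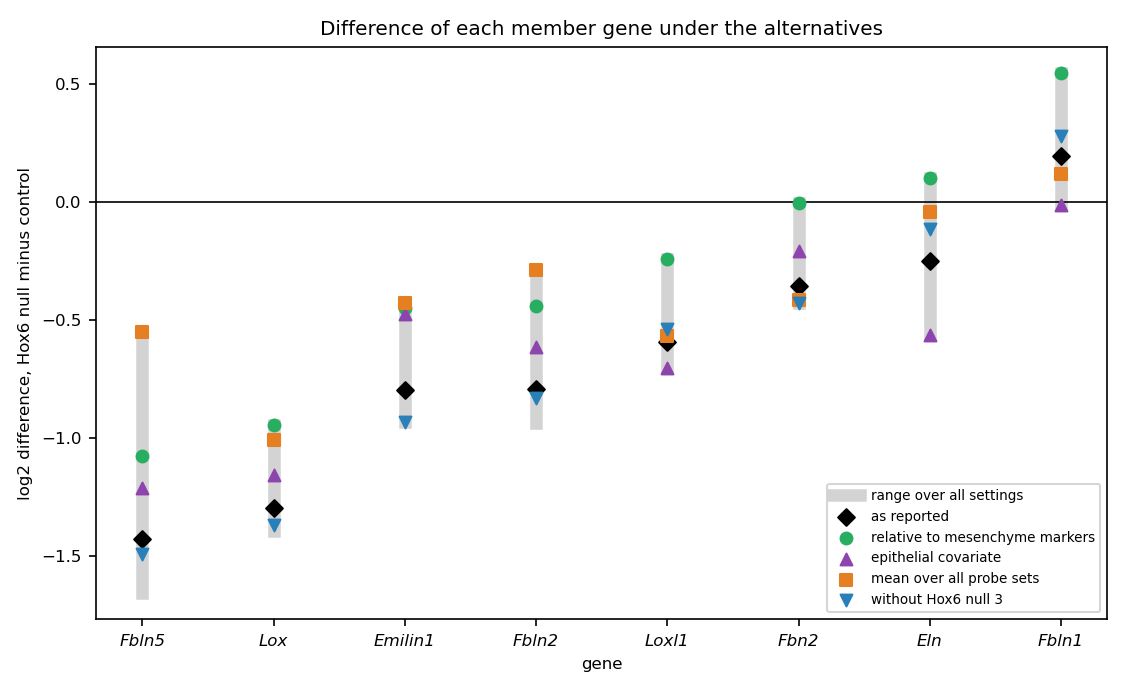
Log2 difference, Hox6 null minus control (vertical axis), of each measured member as reported (black diamonds), with the range over all settings in grey and 4 settings marked. Fbln5, Lox, Emilin1, Fbln2 and Loxl1 stay below 0 in each setting that gave a value, while Eln and Fbln1 cross 0.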

How the data were processed

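RNA from flash-frozen pancreata was amplified from 10 ng with a NuGEN kit and hybridised to Affymetrix arrays, per the labels' protocols. The authors deposited log2 values, 1 for each probe set and array, and the submitters' processing notes name RMA, affy and limma without versions. RMA values are relative to the other arrays, and background compresses differences of dim probe sets. The precision is limited by the number of arrays, 3 in each group, and the labels call these biological replicates without naming embryos or litters, so p-values cover the spread among samples, part of which may be technical. Array pairs correlated at 0.994 to 0.995 among controls, 0.980 to 0.987 among Hox6 null arrays and 0.979 to 0.990 between the groups, and array medians were 5.97 to 6.02. No pair shared more than 166 of 45037 values.

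Symbols came from GEO's platform annotation. Of 45101 probe sets 34958 had 1 symbol (array controls included), 932 had several, and 64 array controls were left out. A linear model with genotype as its term was fitted with limma 3.58.1 in R 4.3.3 (lmFit, eBayes), two-sided, over 45037 probe sets and over 18193 genes represented by their brightest probe set, with Benjamini-Hochberg adjustment over each table. The model was tested on simulated data. Members and gene lists were chosen with earlier results of these data known. Named are all members, of each related list up to 4 genes by smallest p, the genes closest to Eln, and the targeted genes. The single markers (Acta2, Myh11, Pdx1, Tek, Adgre1, Sox2, Tubb3, Barx1, Cdx1, Cdx2 and Stmn2), Xist and the member pairs were named after their values were seen. Alternatives covered normalization, filters on dim probe sets, the variance prior, array weights, a replicate block, probe set choice, a minimum fold change and leaving out each array; covariates and the mesenchyme scaling were added later.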

Additional observations from a re-analysis of the deposited data

How the results depend on the processing

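The count of members past the threshold ranged from 0 to 5 genes and from 0 to 6 probe sets when single arrays were left out, and the higher value came without Hox6 null replicate 3 in both, where 8.44% of all genes and 4.22% of all probe sets passed. Members past the threshold numbered 1 with a minimum mean level of 7 (Loxl1), 2 with array weights, and 3 genes and 2 probe sets with an intensity trend and robust prior; the other settings, including repeated quantile normalization, median centring and a minimum fold change of 1.2, gave 0 genes. Related genes past the threshold, 1 as reported, ranged from 0 to 13 without single arrays, the 13 coming without Hox6 null replicate 3. They numbered 0 with the replicate block, with repeated quantile normalization or median centring, with the minimum fold change, the epithelial covariate or the Xist covariate. Either filter on dim probe sets gave 2, where 0.340% (median level) and 0.219% (level of 7) of the tested genes passed. The trend and robust prior gave 3 (0.407% of all genes passed), and array weights gave 4 (0.852%). The median difference of the members, -0.69 as reported, was -0.59 with probe sets at or above the median level (Lox left out), -0.47 with a minimum level of 7 (Lox and Fbln5 left out), -0.42 with the mean over all probe sets, -0.59 with the epithelial covariate and -0.34 relative to the mesenchyme markers. Non-overlapping members, 6 as reported and all lower, numbered 4 to 8. They were 6 lower and 1 higher without Hox6 null replicate 3 (over all genes 20.7% below and 26.8% above), 7 lower and 1 higher without control replicate 3 (14.2% and 16.5%), and 3 lower and 1 higher relative to the mesenchyme markers (1.62% and 37.8%); in the other settings all were lower. Eln turned to +0.10 relative to the mesenchyme markers and Fbln1 to -0.01 (-0.0128) with the epithelial covariate; the cause was not tested. Over all settings the adjusted p (limma) ran from 0.0152 to 0.303 for Lox and from 0.0248 to 0.358 for Loxl1.

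The replicate numbers of the labels were checked as pairs. Deviations from the group means of same-numbered arrays correlated at 0.159, -0.038 and 0.09998 over genes, not all above 0.1, and not every array was most like the one with its own number, so the block was an alternative only. With the replicate block 0 members passed, with a median of -0.69. The low number of arrays and the dimness of 3 of the 18 probe sets limit what could be detected.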
